A study of Mus musculus with 2 samples.

Results

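The axon guidance ligands and receptors examined here are the semaphorins with their plexin and neuropilin receptors, the ephrins with the Eph receptors, the Slits with the Robo receptors, and the netrins with the Unc5 receptors. Members were taken by gene symbol, as every probe set annotated to exactly 1 gene of these families. The families were chosen with earlier results of these data known. They held 148 probe sets for 67 genes, out of 34945 probe sets for 18193 genes. A probe set is a group of short probes against 1 transcript. The cells were primary osteoblasts, the bone-forming cells, from the calvarial bones of 7-day-old CD1 mice. Both cultures were grown in serum and then starved of it for 24 h in medium with albumin. One then received the vehicle DMSO for 24 h, and the other received 2 µM PP1, which inhibits c-Src and related tyrosine kinases, for 24 h. The labels do not say how many animals gave the cells. Each condition was 1 Affymetrix array, so every value below describes these 2 arrays, and with no replicate the difference between the conditions has no test and no p-value.

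Axon guidance molecules steer growing nerve fibres and also act between cells outside the nervous system. Semaphorins, Slits and netrins bind receptors that change the cytoskeleton and adhesion of the receiving cell, while ephrins and Eph receptors signal into both of the touching cells. Secreted semaphorins of class 3 bind neuropilins, which pass the signal on through plexins, whereas most membrane-bound semaphorins bind plexins directly. Semaphorin 3A made by osteoblasts restrains osteoclasts and favours bone formation. Semaphorin 4D made by osteoclasts restrains osteoblasts through plexin-B1, and ephrin-B2 and EphB4 form a contact signal between both cell types. Kinases of the Src family take part in signalling by ephrin-B proteins and by several of these receptors.

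The genes had no common direction. At a threshold of 1.5-fold, 4 of 7 secreted class 3 semaphorins stood higher on the PP1 array, beside 10.6% of all measured genes. Of 11 measured membrane-bound semaphorins, 2 were lower, beside 7.37% of all measured genes. Only Sema5a among them was higher, by 1.998-fold from a dim signal. Sema3b was 3.0-fold higher, Sema3c 1.9-fold, Sema3a 1.76-fold and Sema3d 1.56-fold. Sema7a was 3.13-fold lower and Sema4f 2.33-fold lower. Among receptors, Epha5 was at least 2.63-fold higher from under the detection floor, Plxnc1 was 1.52-fold higher and Epha3 was 1.65-fold lower. By their brightest probe sets, the neuropilins, the other plexins, ephrin-B1, ephrin-B2 and EphB4 lay within 1.5-fold.

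The promoters of members with ratios on both sides are shown because these are the genes the results turn on. Each run holds the 150 bases before the annotated start, 5′ to 3′ on the gene's strand, from RefSeq, build GRCm38.p6. Of the 13 genes at least 1.5-fold apart, 12 had a promoter in that table, and Sema3b did not. Capitals mark matches to the motifs searched.
Sema3a, chr5:13396634-13396783, plus strand: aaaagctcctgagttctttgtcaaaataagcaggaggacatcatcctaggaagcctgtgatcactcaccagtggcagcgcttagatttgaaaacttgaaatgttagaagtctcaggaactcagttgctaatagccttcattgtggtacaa
Sema3c, chr5:17574666-17574815, plus strand: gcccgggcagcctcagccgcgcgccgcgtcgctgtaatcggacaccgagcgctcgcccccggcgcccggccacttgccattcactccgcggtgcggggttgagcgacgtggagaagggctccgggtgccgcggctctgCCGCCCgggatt
Sema3d, chr5:12383016-12383165, plus strand: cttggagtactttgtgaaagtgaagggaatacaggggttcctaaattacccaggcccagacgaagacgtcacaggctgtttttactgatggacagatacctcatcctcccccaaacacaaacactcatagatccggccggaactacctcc
Sema7a, chr9:57939962-57940111, plus strand: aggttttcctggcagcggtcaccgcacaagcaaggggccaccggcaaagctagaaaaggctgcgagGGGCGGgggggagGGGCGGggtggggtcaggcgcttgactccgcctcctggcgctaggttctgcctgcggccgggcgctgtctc
Sema4f, chr6:82939770-82939919, minus strand: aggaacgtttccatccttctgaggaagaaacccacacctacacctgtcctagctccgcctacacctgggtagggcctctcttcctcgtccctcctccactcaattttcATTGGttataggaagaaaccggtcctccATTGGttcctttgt
Epha3, chr16:63864176-63864325, minus strand: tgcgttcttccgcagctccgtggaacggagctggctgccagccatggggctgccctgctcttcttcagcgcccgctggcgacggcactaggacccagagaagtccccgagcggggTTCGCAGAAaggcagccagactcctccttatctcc

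The motifs were searched on both strands and could overlap: the GC box GGGCGG, the CCAAT box CCAAT, the TATA box TATAAA, the AP-1 motif TGANTCA, the TEAD motif GGAATG, the FOXO motif GTAAACA, the STAT motif TTCNNNGAA, the CArG box and the kappaB motif. Sema3a and Sema3d held none of them in this window. Sema3c held 1 GC box starting 12 bases before the start, and Sema7a held a pair, starting 84 and 71 bases before it. In all, 28.6% of 32843 promoter windows of this length held a GC box, but so did 52 of 75 windows of the families studied here (69.3%). A GC box is thus usual for these families. Sema5a, Plxnc1, Epha5, Robo3 and Efna2, whose windows are not printed, also held GC boxes. Sema4f held a CCAAT box at 42 and at 14 bases before the start. This motif was found in 24.5% of all windows and in 13 of the 75 family windows (17.3%). Epha3 held a STAT motif at 35 bases before the start, which 4.09% of all windows held and 1 of the 75 family windows (1.33%). The 3 class 3 promoters differed in composition, with 42.0% G and C bases for Sema3a, 49.3% for Sema3d and 75.3% for Sema3c. A match is only a description of these letters. Sema3d, Sema3a and Sema3c also lie on the same chromosome, 5, as does Sema3e, while Sema3b and Sema3f are on chromosome 9 and Sema3g on chromosome 14.

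Signals are linear MAS5 intensities, the array maker's summary for a probe set, with those of the PP1 array raised by a factor of 1.68 to equalise the trimmed means. The floor is 31.7, the median signal over the arrays, to which dimmer signals were raised, and a log2 ratio is PP1 minus DMSO. Each gene is given by its brightest probe set, and signals are compared between arrays but not between genes. Measured genes are the 53 of 67 whose brightest probe set exceeded the floor in 1 or both cultures. Of these, 48 did so in both and 5 in only 1, so that their ratios are bounds. In place of a replicate error, the log2 ratio differed between probe sets of a gene with an SD of 0.42 over 23 member genes and 0.41 over 4745 genes of the array. This covers probe sets on these arrays and no variation between cultures.

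Osteoblast markers were present, with all 9 of those named on the array above the floor, among them Col1a1, Alpl and Sp7. Their summed signal was 29527 with DMSO and 37867 with PP1, most of it from Col1a1, Col1a2 and Sparc. The markers had no common direction, with a median log2 ratio of -0.12 and 4 of 9 above 0. Of the 9, only Ibsp, a matrix protein of mineralising bone, was 1.5-fold apart, from 159 to 37.7, a log2 ratio of -2.08. Runx2, Spp1 and Bglap were not analysed here. Markers of other cells were present as well. All 13 macrophage markers were above the floor, with a summed signal of 15278 with DMSO and 17793 with PP1, mostly from Lyz1 and Lyz2. Mrc1 (log2 ratio 1.11) and Cd68 (0.73) were at least 1.5-fold higher and C1qb (-0.76) lower, beside 10.6% and 7.37% of all measured genes. Of 8 osteoclast markers, 5 were above the floor on at least 1 array, with a median log2 ratio of -0.08. Among them, Ctsk had 1233 and 1117, and Acp5 had 109 and 166 (0.62), the only 1 above 0. Of 12 named markers of neurons and glia, 7 were above the floor, summing over all 12 to 1426 and 2352. The glial genes Sox10 (416 and 577) and Mbp (655 and 1260) made up most of this. Of the neuronal genes, Map2 (161 and 165) and Gap43 (55.5 and 124) were above the floor on both arrays, and Rbfox3 and Syp only with PP1. Tubb3, Dcx, Snap25, Elavl3 and Elavl4 were under the floor on both. Of the 7 genes, 3 were at least 1.5-fold higher, namely Gap43, Mbp and the glial gene Gfap, beside 10.6% of all measured genes. Gfap was under the floor with DMSO (31.1) and had 60.0 with PP1, so its ratio is a bound near the floor. The summed smooth muscle and pericyte markers went from 14672 to 10085, and cartilage markers from 5989 to 5195. Endothelial markers were dim, with 6 of 12 under the floor on both arrays, among them Pecam1 and Vwf. The part of these cells in any ratio below was not tested, and fewer cells of a type cannot be told apart from less RNA per cell.

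Among the 53 measured genes, 9 (17%) stood at least 1.5-fold higher with PP1, beside 10.6% of the 12111 measured on the whole array. On the other side, 4 (7.55%) were at least 1.5-fold lower, against 7.37% of all genes. At 2-fold, 2 genes were higher (2.97% of all genes) and 2 were lower (1.55% of all genes). The median log2 ratio of the 53 genes was 0.03, beside 0.01 for all genes. By the median of the brightest probe sets, they thus lay with the bulk. The share of all genes at least 1.5-fold higher depended on signal. It was 16.3% for mean signals of 2 to 4 times the floor and 5.81% above 16 times the floor. Of the 9 higher members, Sema3c, Sema3d and Plxnc1 had DMSO signals above 4 times the floor (127). Sema3b (107 and 322) and Sema3a (82.9 and 146) passed that level with PP1 only. These are signals of single arrays, whereas the shares just given use the mean of both arrays.

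**Figure D1:**
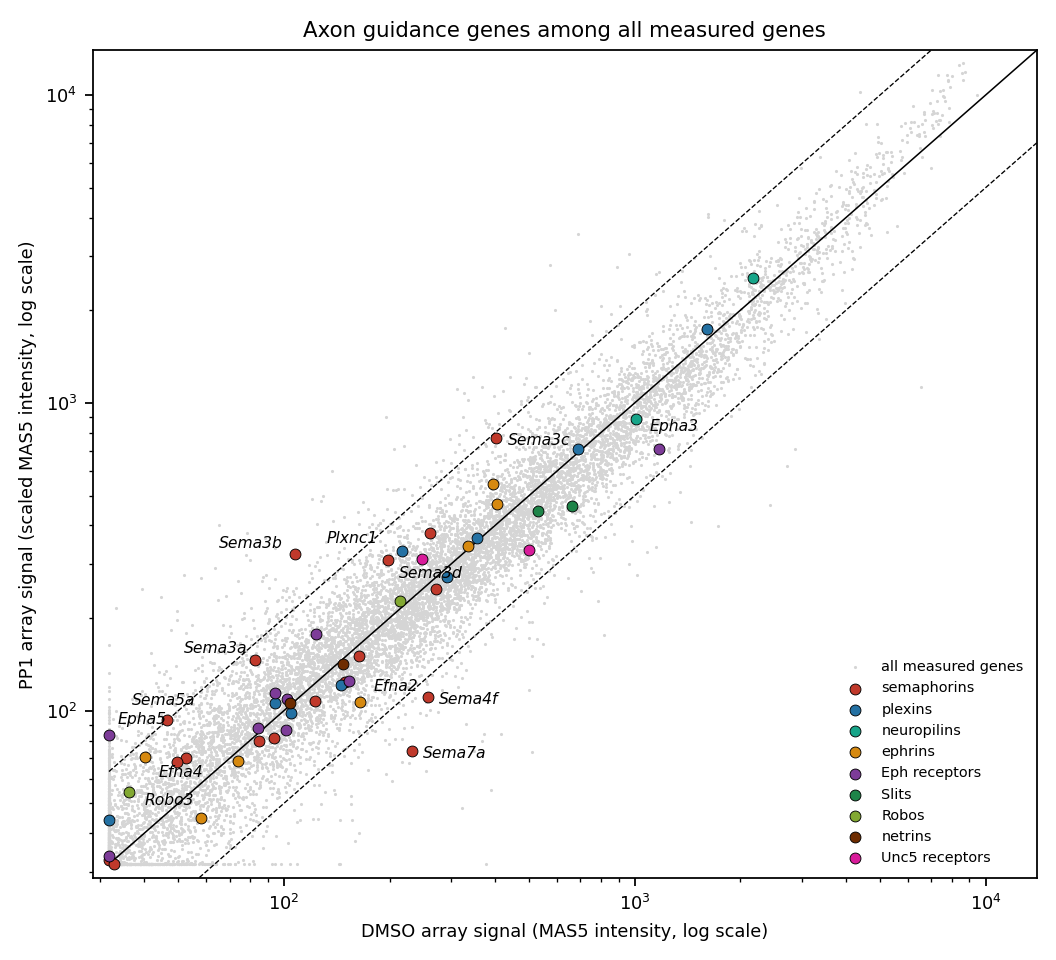
Signal on the DMSO array (horizontal) and scaled signal on the PP1 array (vertical), both MAS5 intensities on log axes with values under the floor of 31.7 drawn at it. Grey points are the 12111 measured genes, coloured points the 53 measured axon guidance genes by family, the solid line equality and the dashed lines 2-fold. Most coloured points lie near the line, Sema3b and Epha5 above the upper dashed line, and Sema4f and Sema7a below the lower one.

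Counted over probe sets, 102 of 148 were above the floor. Of these, 28 were at least 1.5-fold higher and 8 at least 1.5-fold lower, against 13.9% and 7.1% of the 21219 such probe sets on the array. The median log2 ratio was 0.19 over the 102 and 0.05 over the 21219. The larger count of higher probe sets came with a pattern by brightness. In 18 of 23 members with several probe sets detected on each array, the brightest gave a lower ratio than the median of the others, and the median difference over the 23 was -0.27. The same held for 3022 of 4745 genes over the whole array, with a median difference of -0.16. Of 29 members with several probe sets above the floor on at least 1 array, 16 showed 1 direction throughout, as did 2679 of 5488 genes.

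**Figure D2:**
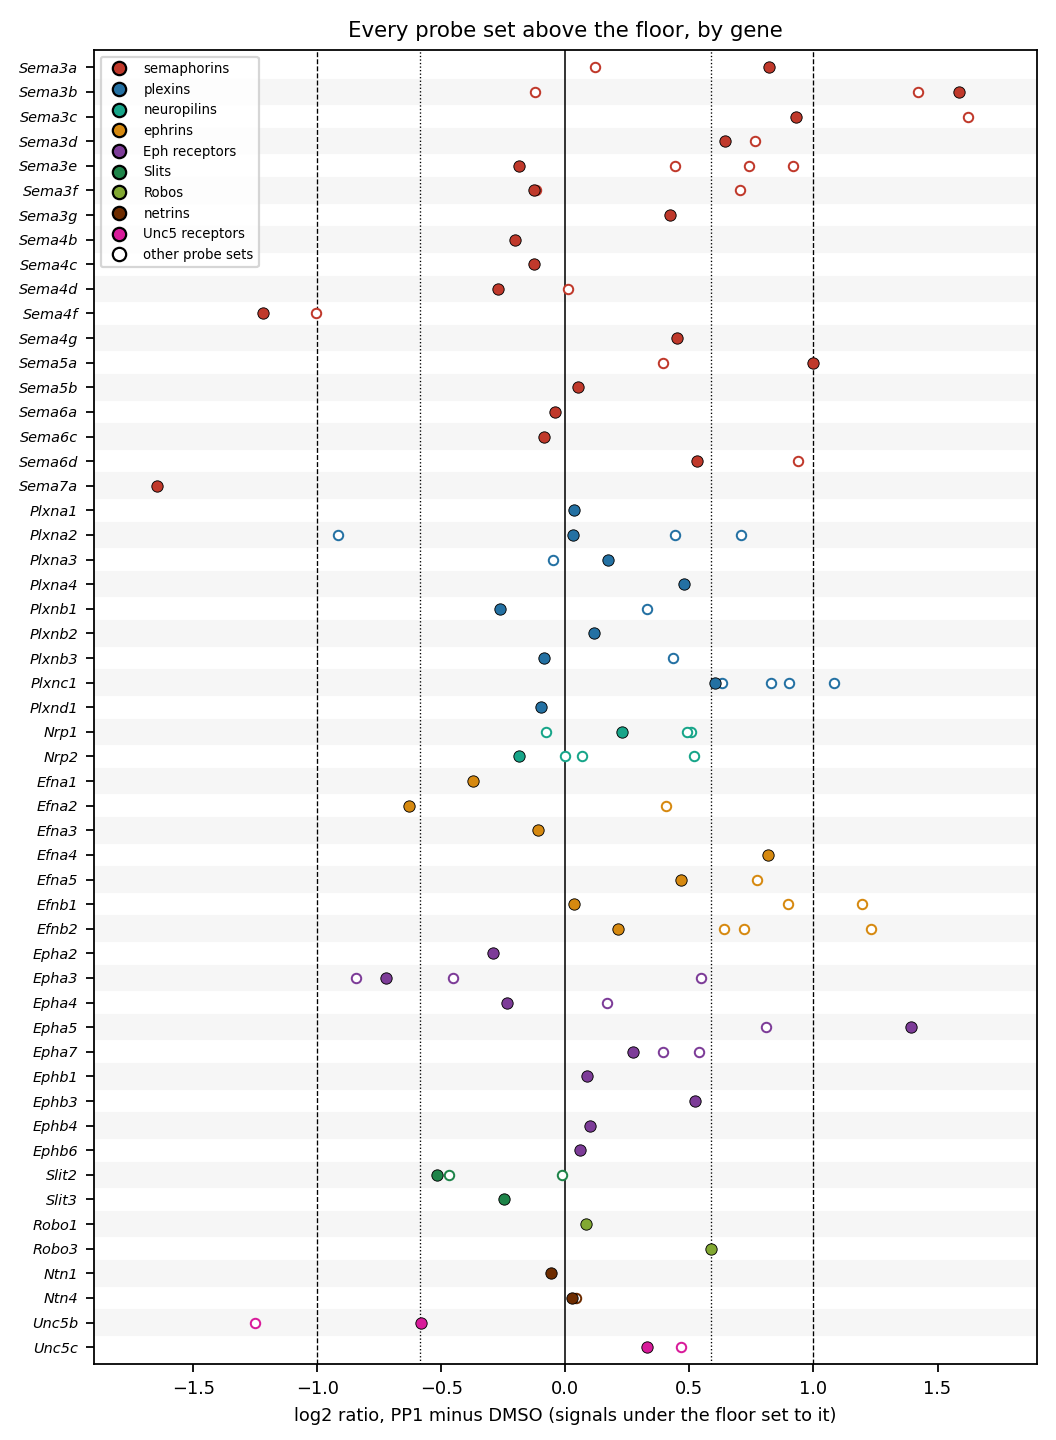
The log2 ratio, PP1 minus DMSO, of each of the 102 probe sets above the floor (horizontal axis), in 1 row per measured gene, coloured by family. Filled points are the brightest probe set of a gene and open points the others; dotted lines mark 1.5-fold and dashed lines 2-fold. The probe sets of Sema3c, Sema3d and Plxnc1 lie to the right of 0, those of Sema4f and Unc5b to the left, and those of Plxna2 and Epha3 on both sides.

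All 7 class 3 semaphorins were measured, and 4 of them were at least 1.5-fold higher while none was 1.5-fold lower. The shares over all measured genes were 10.6% and 7.37%. Their median log2 ratio was 0.64. Of their 17 probe sets above the floor, 10 were at least 1.5-fold higher, beside 13.9% of such probe sets on the array. Sema3a, Sema3c and Sema3d each had every probe set above the floor on the higher side, but the size varied within a gene.

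Sema3b, a secreted ligand for neuropilins, had a signal of 107 with DMSO and 322 with PP1, a log2 ratio of 1.59. A second probe set went from 5.87, under the floor, to 85.0, at least 2.68-fold higher, and the third went from 34.5, just above the floor, to under it. Both of these carried only a bound and lay on opposite sides, so the size for Sema3b rests on its brightest probe set. Sema3c, known for its part in shaping the outflow tract of the heart, had 403 against 768, a log2 ratio of 0.93. Its dimmer probe set gave 1.62, from 73.7 to 226.8. Both probe sets of Sema3c were higher with PP1.

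Sema3a, the founding repellent of the class and a bone-protective factor, had 82.9 on the DMSO array against 146 with PP1, a log2 ratio of 0.82. A second probe set of nearly equal brightness gave only 0.12, from 89.8 to 97.4, so the size for Sema3a rests on 1 of its probe sets. Sema3d had 197 against 309, a log2 ratio of 0.64, and its other probe set gave 0.77. Sema3d is a guidance cue of the developing heart and vessels, and its probe sets were close together.

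The remaining class 3 members were not 1.5-fold apart by their brightest probe set. Sema3e, the ligand of plexin-D1, had 123 against 108, a log2 ratio of -0.19. Its 3 dimmer probe sets ran from 0.44 to 0.92, so its direction depended on the probe set. Sema3f, which binds neuropilin-2, had 272 against 249, a log2 ratio of -0.13. Another of its probe sets gave 0.70 (132 against 215) and the other -0.12. Sema3g, a vascular semaphorin, had 52.6 against 70.4, a log2 ratio of 0.42 from 1 dim probe set. Beside the class 3 semaphorins, the glial gene Mbp gave a log2 ratio of 0.94 and Sox10 one of 0.47, and the part of glial cells was not tested.

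**Figure D3:**
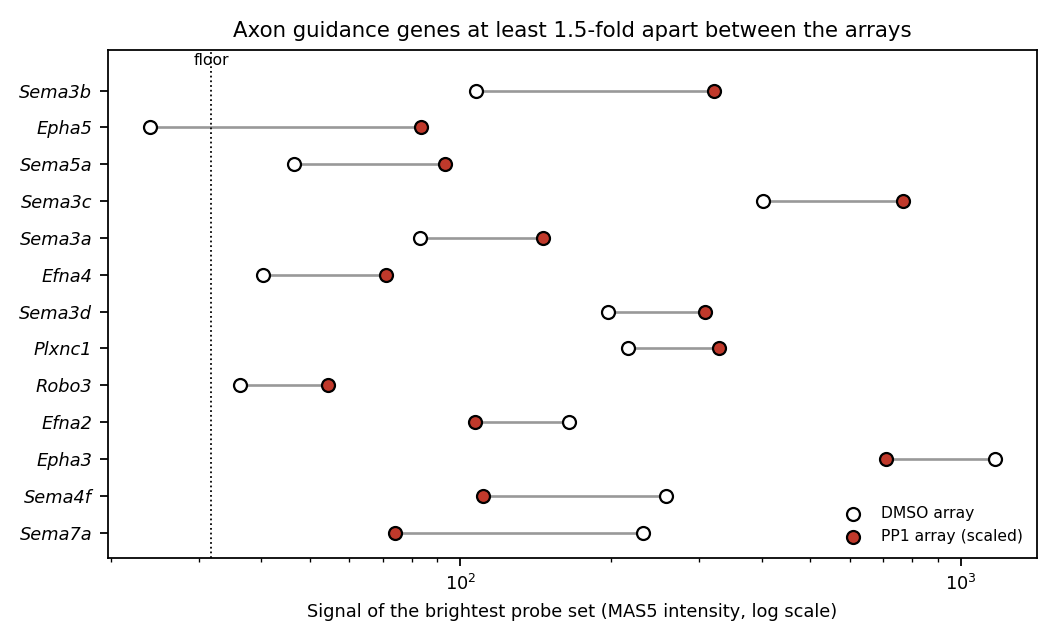
Signal of the brightest probe set on the DMSO array (white) and the scaled PP1 array (red), as MAS5 intensity on a log axis, for the 13 axon guidance genes at least 1.5-fold apart, ordered by log2 ratio. The dotted line is the floor of 31.7. Sema3b went from 107 to 322 and Sema7a from 231 to 73.9, and Epha5 started under the floor.

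Of the 13 semaphorins of classes 4 to 7, 11 were measured, with 1 at least 1.5-fold higher, 2 lower and a median of -0.09. Of all measured genes, 10.6% were that much higher and 7.37% lower. Sema7a, which is tethered to the membrane by a lipid anchor and binds plexin-C1 and integrins, had 231 with DMSO and 73.9 with PP1. That is a log2 ratio of -1.65, the lowest among the measured members. It rests on 1 probe set, since the other was under the floor on both arrays. Sema4f, a transmembrane semaphorin of class 4, had 258 against 111, a log2 ratio of -1.22. Its other probe set was 2.01-fold lower, from 119.8 to 59.7, so both probe sets were lower by a similar factor.

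Sema5a, a transmembrane protein with thrombospondin repeats, had 46.6 against 93.0 and missed the 2-fold mark at 1.998-fold higher. Its other probe set above the floor gave a log2 ratio of 0.39, and both were dim. Sema6d, a ligand of plexin-A1, had 261 against 377, a log2 ratio of 0.53, and its dimmer probe set gave 0.94. Sema4d, which restrains osteoblasts in bone, had 150 against 124, a log2 ratio of -0.27. Sema4c had 164 against 150.5, a ratio of -0.13. Sema4b, Sema4g, Sema5b, Sema6a and Sema6c were dimmer, with log2 ratios from -0.20 for Sema4b to 0.45 for Sema4g. Of these, Sema5b and Sema6a were above the floor on only 1 array, and Sema4a and Sema6b on neither.

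All 9 plexins and both neuropilins were measured, and Plxnc1 was the only 1 of the 11 at least 1.5-fold apart by its brightest probe set. It was higher, as were 10.6% of all measured genes. Plexin-C1, the receptor of semaphorin 7A, had 217 against 329, a log2 ratio of 0.60. Its 5 probe sets above the floor were all higher, with log2 ratios from 0.60 to 1.08. The ligand Sema7a and this receptor thus differed in opposite directions. As deposited, without scaling, Plxnc1 went from 217 to 196, so its direction holds only relative to the bulk of genes.

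Neuropilin-1 (Nrp1), the co-receptor that binds semaphorin 3A, had 2171 on the DMSO array against 2545, a log2 ratio of 0.23. A pair of its other probe sets gave 0.49 and 0.51, and the dimmest gave -0.08. Neuropilin-2 (Nrp2), the co-receptor for semaphorin 3F, had 1009 against 887, a ratio of -0.19, with other probe sets from 0.00 to 0.52. Neither receptor was 1.5-fold apart by any probe set above the floor.

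Among the class A plexins, which partner neuropilins, Plxna1 had 690 against 706, a log2 ratio of 0.03. Plxna2 had 356 against 364, also 0.03, but its other probe sets ran from -0.92 to 0.71 and are uncertain. Plexin-B1 (Plxnb1), the receptor through which semaphorin 4D acts on osteoblasts, had 146 against 121, a ratio of -0.26, with 0.33 by its dimmer probe set. Plexin-B2 (Plxnb2) had 1606 against 1738, a ratio of 0.11. Plexin-D1 (Plxnd1), the receptor of semaphorin 3E, had 292 against 272, a ratio of -0.10. Plxna3, Plxna4 and Plxnb3 were dim, from -0.09 for Plxnb3 to 0.48 for Plxna4, which was under the floor with DMSO. The other probe set of Plxnb3 gave 0.43 and that of Plxna3 gave -0.05, against 0.17 by its brightest. In both genes the direction thus depended on the probe set.

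Of 8 ephrins, 7 were measured, with Efna4 at least 1.5-fold higher and Efna2 at least 1.5-fold lower. These shares were 10.6% and 7.37% over all measured genes. Ephrin-A5 (Efna5), a lipid-anchored ligand of the EphA receptors, had 396 against 547, a log2 ratio of 0.47, and 0.77 by its dimmer probe set, a bound. Efna4 had 40.3 against 71.0, a ratio of 0.82 from 1 dim probe set. Efna2 had 165 against 107, a ratio of -0.63, while its other probe set went from under the floor to 42.0. The direction of Efna2 therefore depended on the probe set. Efna1 and Efna3 were dim, with log2 ratios of -0.37 and -0.11.

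The B ephrins are transmembrane ligands that also signal backwards into their own cell, and the probe sets of both measured members were all above 0. Ephrin-B2 (Efnb2) had 404 against 468 by its brightest probe set, a log2 ratio of 0.21. A second probe set had 250 against 412 (0.72), another 37.0 against 86.7 (1.23), and the dimmest was under the floor with DMSO and 49.4 with PP1. Ephrin-B1 (Efnb1), which acts in skull suture formation, had 335 against 343, a ratio of 0.03. Its other probe sets had 88.6 against 165 (0.90) and 37.4 against 85.5 (1.19). In both genes the ratio was larger the dimmer the probe set above the floor on both arrays, so whether they differ by 1.5-fold depends on the probe set. Efnb3 was under the floor on both arrays.

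Of 13 Eph receptors, 9 were measured. Epha3, a receptor of the A ephrins, had 1169.5 against 708, a log2 ratio of -0.72. Its probe sets of 722 against 402 (-0.84) and 255 against 186 (-0.45) were lower too, and only the dimmest, with 56.3 against 82.2, was higher. The brighter 3 probe sets of Epha3 thus agreed in direction. Epha5, a receptor mostly known from the brain, was under the floor with DMSO (24.0) and had 83.4 with PP1, at least 2.63-fold higher. A second probe set went from 14.8 to 55.5, at least 1.75-fold higher, and a further pair was under the floor on both arrays. Both fold changes are bounds near the floor, and Epha5 is counted as measured only because of the PP1 array.

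Epha2, an Eph receptor of many epithelia, had 153 against 125, a log2 ratio of -0.29. Ephb3 had 123 against 177, a ratio of 0.52. Ephb4, the osteoblast receptor of ephrin-B2, had 102 against 109, a ratio of 0.10 from 1 probe set. Epha4, Epha7, Ephb1 and Ephb6 were dimmer, with log2 ratios from -0.23 for Epha4 to 0.27 for Epha7. Epha1, Epha6, Epha8 and Epha10 were under the floor on both arrays.

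Both measured Slits, secreted ligands of the Robo receptors, were lower with PP1 and within 1.5-fold. Slit2 had 664 against 463, a log2 ratio of -0.52, and its other probe sets gave -0.47 and -0.02. Slit3, which acts between bone cells and vessels, had 529 against 446, a ratio of -0.25. Robo1, the broadly expressed receptor, had 214 against 227, a ratio of 0.08. Robo3 stood at the 1.5-fold threshold itself, from 36.3 to 54.4 and so close to the floor. Slit1, Robo2 and the endothelial receptor Robo4 were under the floor on both arrays.

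Unc5b, a netrin receptor that can trigger cell death without its ligand, had 498 against 333, a log2 ratio of -0.58 and just inside 1.5-fold. Its dimmer probe set had 90.6 against 38.0, a ratio of -1.25, so both were lower. Unc5c, a receptor that mediates repulsion, had 247 against 311, a ratio of 0.33, and 0.47 by its other probe set. The measured Unc5 receptors therefore differed in opposite directions. Netrin-1 (Ntn1) had 147 against 141, a ratio of -0.06, and Ntn4, a netrin of basement membranes, had 104 against 106, a ratio of 0.03. Unc5a, Unc5d, Ntn3 and Ntn5 were under the floor on both arrays.

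For the rest of the pathway, 100 of 105 listed genes were found under their names and 95 were measured. Of these, 7 were at least 1.5-fold higher (7.37%) and 11 at least 1.5-fold lower (11.6%), beside 10.6% and 7.37% of all measured genes, with a median log2 ratio of 0.01. The lower genes included enzymes and adaptors downstream of the receptors. Mical2, an oxidoreductase that takes apart actin filaments, was 3.40-fold lower, from 510 on the DMSO array, a log2 ratio of -1.77, and -0.49 by its other probe set. Mical1, which acts downstream of class A plexins, had 307 against 130, a ratio of -1.24, and -0.46 by its other probe set. Both Mical genes were lower by every probe set above the floor, with sizes that depended on the probe set.

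The kinase Limk2, which phosphorylates cofilin, had a log2 ratio of -0.69, and the actin-binding kinase Abl2 one of -0.68, or 0.12 by its other probe set. The exchange factors Vav2 (-0.66), Tiam1 (-0.67) and ephexin (Ngef, -0.97, a bound from 62.0 to under the floor) were lower too. So were the Ras inhibitor Rasa1 (-0.72, up to 0.05 by another probe set) and Vasp (-0.59), a protein that lengthens actin filaments. The proteoglycan Cspg4 stood at -1.74, and Trem2, a partner of plexin-A1 on macrophages and osteoclasts, went from 50.1 to under the floor, or stood at 0.25 by its other probe set. Cspg4 is also on the pericyte marker list, of which 4 of 8 members above the floor were at least 1.5-fold lower, against 7.37% of all measured genes. Another, the muscle filament gene Des, was higher, from 39.4 to 106 (1.43), and the part of such cells was not tested.

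On the higher side stood several receptors and binding partners. Met, the receptor of hepatocyte growth factor and a partner of plexin-B1, had 149 against 361, a log2 ratio of 1.27, but 0.09 by its other probe set. Gfra1, a receptor of glial cell line-derived neurotrophic factor, had 259 against 561, a ratio of 1.12, with all 3 probe sets from 0.61 to 1.77. The neogenin ligand Rgma stood at 1.05 from a dim signal of 46.7, while neogenin (Neo1) itself was at 0.01. Chl1 (0.66), a neuropilin-1 partner, the plexin-binding GTPase Rnd2 (1.02), the adaptor Gipc1 (0.62) and Pick1 (0.61, from 48.7) made up the rest.

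**Figure D4:**
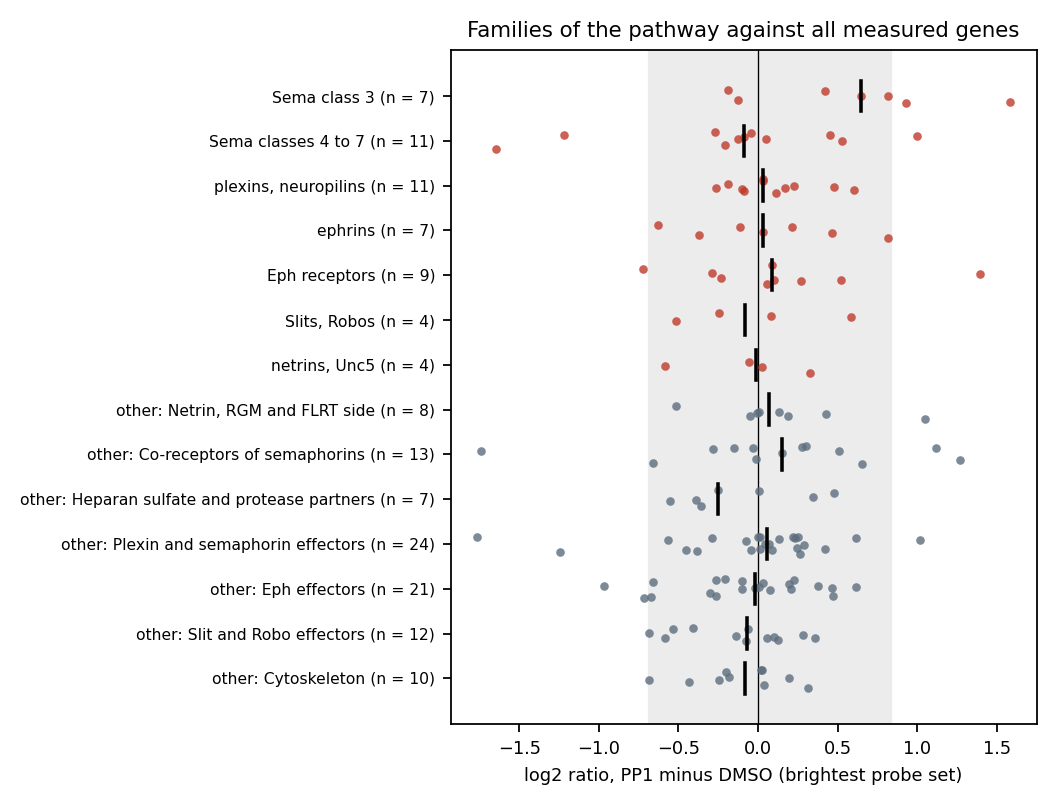
The log2 ratio, PP1 minus DMSO, of the brightest probe set of each measured gene (1 point per gene), for the axon guidance families in red and the other listed pathway genes in grey. Black bars are medians, and the shaded band holds the ratios of all 12111 measured genes from the 5th to the 95th percentile, -0.68 to 0.84. The class 3 semaphorins have a median of 0.64, while the medians of the other rows lie between -0.25 and 0.15. Slits and Robos share a row, and taken apart the 2 Slits have a median of -0.38 and the 2 Robos one of 0.34.

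The directions above are relative to the bulk of genes on the 2 arrays. The deposited PP1 values were dimmer, and without scaling the median over all genes moved by -0.71. In those values, 6 of the 9 higher members stayed above 0, namely Sema3a, Sema3b, Sema3c, Sema5a, Efna4 and Epha5, while Sema3d, Plxnc1 and Robo3 did not. Scaled to the bacterial hybridization controls instead, 4 of the 9 stayed above 0, namely Sema3b, Sema3c, Sema5a and Epha5, so that Sema3a and Efna4 lost their direction as well. The 4 lower members, Sema4f, Sema7a, Epha3 and Efna2, stayed below 0 under both settings. Both settings give lower PP1 signals than the main scaling, so a member already below 0 could not rise above it. Their unaltered direction is therefore no check on these 4 genes.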

How the data were processed

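The values are the deposited signals of 2 Affymetrix arrays, 1 per condition, each a linear intensity per probe set made with MAS5, per the submitters' processing notes; no source used here states a version or target scaling. Per the labels' protocols, RNA was extracted with Trizol and labelled as biotinylated cRNA. The file held 45101 probe sets, 64 of them controls. The platform annotation named 1 gene for 34945, several for 932 and none for 9160; symbols were updated by gene identifier (34741 matched, all 148 members among them). Probe sets without exactly 1 gene were left out.

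The PP1 array was scaled to equal 2% trimmed means (158.1 and 94.1 as deposited), a floor was set at the median, and values were put on the log2 scale. The brightest probe set, by mean log2 signal before the floor, stood for its gene. The number of arrays limits the precision, and there was no replicate and no test. Values are given for measured genes at least 1.5-fold apart or reaching 4 times the floor, and other members by name and range, with a few of these, such as Ephb4, Ntn4 and Sema3g, given for their role. The members, pathway list and motifs were chosen with earlier results of these data known. Alternatives were no scaling, median centring, hybridization controls, loess, no floor, a higher floor, the median over probe sets and omission of shared probe sets. The steps were tested on simulated data and run in Python 3.11.15 with numpy 2.4.6, pandas 2.3.3 and statsmodels 0.14.6.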

Additional observations from a re-analysis of the deposited data

How the results depend on the processing

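Counts of members moved where the scale of the arrays changed. As deposited, 1 member was at least 2-fold higher and 10 were at least 2-fold lower, beside 50 and 2877 of 12291 genes. At 1.5-fold the counts were 2 and 30 of 53 members, beside 1.19% and 60.6% of all genes. Scaled to the bacterial hybridization controls, they were 0 and 15 at 2-fold, beside 35 and 3774 of 12351 genes. At 1.5-fold they were 2 and 33 of 53 members, beside 0.915% and 66.9% of all genes, whose median shifted by -0.80. As deposited, the shift follows from leaving out the factor of 1.68. With the controls, it follows from their signals on the arrays, which gave a measured factor of 0.937. With the floor at the 75th percentile, 26 members were measured. At 2-fold, 0 were higher and 0 lower, beside 111 and 84 of 7526 genes. At 1.5-fold the counts were 4 and 2, beside 6.43% and 6.34% of all genes. Fewer genes were tested there, and dim signals were raised to the floor. Efna2 changed sign there, to 0.015. With the median over probe sets, 1 member was at least 2-fold lower, since 1 probe set of Sema7a is under the floor. Of all 12133 genes, 109 were that much lower. Under the other settings the counts stayed within 1.5 times, and the median log2 ratio of the members, taken relative to all genes, stayed within 0.1 in all 8 settings. Counting each probe set on its own, a choice made after seeing the data, gave 28 higher and 8 lower of 102. Over the whole array the shares were 13.9% and 7.1%. Relative to the median of all genes, Sema3b ran from 1.05 to 1.58, Sema3c from 0.89 to 1.28, Sema3d from 0.60 to 0.71 and Sema4f from -1.26 to -0.63. Sema3a ran from 0.13 to 0.82, Sema5a from 0.20 to 1.00, Epha5 from 0.41 to 1.80, Sema7a from -1.71 to -0.47 and Robo3 from 0.30 to 0.58. Sema3b had no value with shared probe sets left out, and Sema3a, Sema5a, Epha5 and Robo3 had none at the higher floor. The ranges of these 5 genes thus cover 7 settings. On that scale, the median over probe sets put Sema3a, Sema5a, Epha5, Robo3, Efna2 (-0.10) and, narrowly, Epha3 (-0.58) within 1.5-fold. It put Efna5 (0.63), Efnb1 (0.91), Efnb2 (0.69) and Unc5b (-0.91) past 1.5-fold. Omission of shared probe sets also put Efnb1 past it, at 1.18, because its brightest probe set was then left out. No paired analysis was possible because each condition is 1 array. Dim signal limits Epha5, Sema5a, Efna4 and Robo3.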
